A study of Mus musculus with 18 samples.

Results

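Cytosolic ribosomal protein genes encode the proteins of the ribosome that works outside mitochondria. They were taken as the entries of the deposited table whose symbol is Rpl or Rps with a number (and at most a letter and a digit after it), Rplp0, Rplp1, Rplp2 or Rpsa, and whose mean over the 18 libraries was at least 1 FPKM, the number of fragments per kilobase of transcript, scaled to the depth of the library. The rule gave 84 of 36737 entries, 49 of the large subunit and 35 of the small subunit, on 19 chromosomes. A further 5 entries had a matching symbol but lay under the minimum, with means of 0.808 FPKM for Rpl32l, 0.580 for Rpl3l, 0.0161 for Rpl39l, 0.00778 for Rps12l1 and 0.00333 for Rpl10l. The member nearest above it was Rpl21 with 2.19 FPKM. The table annotates 4 members (Rps3a2, Rps3a3, Rpl6l and Rps4l) as processed pseudogenes, which are copies of an mRNA inserted elsewhere in the genome.

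RNA was sequenced from L3–L5 dorsal root ganglia (DRG), where the cell bodies of sensory neurons lie, of adult CD1 mice, an outbred stock. The 3 groups were sham surgery, tibial fracture with vehicle, and tibial fracture with protectin DX (PDX), a pro-resolving lipid mediator, with 6 mice each (3 males and 3 females) and 1 library per mouse. The bone was cut and pinned, and ganglia of both fracture groups were collected on day 3, whereas the sources used here give neither the day for sham mice nor the PDX dose of the sequenced mice. Libraries held 63235040 to 82824942 counts, and the 20 sensory neuron markers summed to 23856 to 28881 CPM (counts scaled to a common library total).

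The ribosome joins a small subunit, which reads the mRNA, to a large subunit, which forms the peptide bond and carries a stalk of Rplp0, Rplp1 and Rplp2 that recruits translation factors. The mRNAs of ribosomal proteins belong to the TOP class, which begin with a C followed by a run of pyrimidines, and through this tract the mTOR pathway and the RNA-binding protein Larp1 set their translation. These mRNAs are short and abundant, and the mouse genome holds many processed pseudogenes made from them.

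RefSeq promoter windows (GRCm38.p6, 250 bases before and 50 from the annotated start on) were found by symbol for 60 of the members, in 71 windows. A C followed by 4 bases that are each C or T stood exactly at the annotated start in 13 member windows (18.3%), and in 2.51% of all 32851 windows. The letters CCGGAAG, on either strand, were in 36.6% of the member windows and 8.86% of all windows. The letters TATAAA, on the sense strand only and 40 to 15 bases before the start, were in 1.41% and 1.99%. Such matches describe letters and are not evidence of a bound factor. The 5 windows printed here show the tract in members that come up in the results. Each has 8 bases before the start and 22 from it on, on the strand of the gene, with the pyrimidine tract in capitals.
Rps18: cttccgctCTCTCTTCCacaggaggcctac
Rpl35a: ttgccttcCTCTTTCCgccatcttggcgcc
Rpl15: aaagccttCTTCCTTTCCTCTggcggcagc
Rps21: gacccgccCTCCTgcccaatagtgctgcgg
Rplp2: gcgtcttcCTTTCgccgccggacgccgccg
They lie at chr17:33955644-33955673 (minus strand) for Rps18, chr16:33056474-33056503 (plus strand) for Rpl35a, chr14:18270965-18270994 (minus strand) for Rpl15, chr2:180257371-180257400 (plus strand) for Rps21 and chr7:141447643-141447672 (plus strand) for Rplp2. Among these the tract was longest in Rpl15, with 13 bases, and shortest in Rps21 and Rplp2, with 5.

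Most members were abundant in the ganglia. Their median was 42.7 FPKM, against 6.43 FPKM for the 12045 protein-coding entries with a mean of at least 1 FPKM. The highest FPKM was that of the stalk protein Rplp1 (chr9:61913284-61914542) with 288, followed by the stalk protein Rplp0 with 218, Rps15 with 208, Rpl4 with 194 and Rpl19 with 191. The third stalk protein, Rplp2, had 27.9 FPKM. The lowest members were Rpl21 with 2.19 FPKM, Rpl34 with 3.08, Rps18 with 4.74, Rpl29 with 4.89 and Rpl22l1 with 5.47. In all, 12 members reached at least 100 FPKM, 63 lay from 10 to 100 and 9 lay under 10, and the highest was 132 times the lowest. FPKM divides by transcript length, and the order in CPM, which does not, was another. Sham means were 448 CPM for Rpl4, 412 for Rplp0, 165 for Rplp1 and 64.9 for Rplp2.

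Members named as like another gene had less FPKM than the gene of the same number. Rps27l, a paralog that p53 is known to induce, had 13.4 FPKM and Rps27 18.6. Rpl22l1 had 5.47 FPKM and Rpl22 26.6, and Rpl7l1 had 10.5 and Rpl7 79.0. The pseudogene entries Rps4l and Rpl6l had 12.9 and 8.0 FPKM, and Rps4x and Rpl6 had 127 and 61.2. The 4 members on the X chromosome were Rpl39 with 15.9 FPKM, Rpl36a with 21.4, Rpl10 with 92.9 and Rps4x with 127.

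Many members share nearly their whole mRNA with other entries of the table. A search of GENCODE M21 transcripts with blastn found 851 entries with at least 90% identity to 78 of the members over at least 80% of their length and 150 bases. Of these copies 139 had a mean of at least 100 counts per library, and 3 were themselves members (Rps3a2 and Rps3a3 of Rps3a1, and Rpl6l of Rpl6). Rpl7a, a protein of the large subunit, had 70 copies, Rpl21 67, and Rpl29 and Rps2 53 each. Here the counts of a member and all its copies are called its family. Of the 81 members that are no copy of another, 44 held at least 90% of their family's counts and 8 held less than 50%. The smallest parts were those of Rpl21 (5.52%), Rpl29 (6.30%), Rpl34 (13.0%) and Rps18 (14.8%), the 4 members with the lowest FPKM.

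How alike such entries are can be seen in their letters. The pairs printed here are the first stretch of 90 coding bases with the most differences (GENCODE M21, sense strand) in members whose counts moved between entries or that were called in a comparison. Capitals mark the bases that differ.
Rpl26: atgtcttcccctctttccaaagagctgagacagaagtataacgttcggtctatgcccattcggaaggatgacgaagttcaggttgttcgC
Gm15772: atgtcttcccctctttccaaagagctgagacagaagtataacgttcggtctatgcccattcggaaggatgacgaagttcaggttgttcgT
Rpsa: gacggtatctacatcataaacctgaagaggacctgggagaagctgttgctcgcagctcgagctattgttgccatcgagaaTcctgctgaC
Rpsa-ps10: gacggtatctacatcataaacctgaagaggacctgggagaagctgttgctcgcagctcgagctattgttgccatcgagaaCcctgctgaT
Rps3a1: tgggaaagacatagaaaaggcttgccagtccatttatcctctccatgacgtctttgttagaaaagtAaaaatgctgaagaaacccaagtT
Rps3a2: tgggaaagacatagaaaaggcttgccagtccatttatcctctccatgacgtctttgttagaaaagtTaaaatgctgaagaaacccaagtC
Rps18: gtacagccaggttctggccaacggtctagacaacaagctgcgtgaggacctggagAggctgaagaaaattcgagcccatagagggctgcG
Rps18-ps6: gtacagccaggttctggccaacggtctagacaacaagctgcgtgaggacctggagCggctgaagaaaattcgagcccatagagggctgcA
Rpl29: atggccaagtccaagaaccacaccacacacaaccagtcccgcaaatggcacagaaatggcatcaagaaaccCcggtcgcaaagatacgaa
Gm8210: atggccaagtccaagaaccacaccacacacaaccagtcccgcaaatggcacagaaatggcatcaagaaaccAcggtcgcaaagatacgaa
Over the whole coding sequence, Rpl26 (chr11:68901583-68906989) and Gm15772 (chr5:3236431-3236868) differed at 2 of 438 bases. For Rpsa (chr9:120127689-120132369) and Rpsa-ps10 (chr3:150072658-150073542) it was 6 of 888, and for Rps3a1 (chr3:86137940-86142702) and Rps3a2 (chr14:88123017-88123808) it was 4 of 795. For Rps18 (chr17:33951999-33955663) and Rps18-ps6 (chr13:97760072-97760632) it was 4 of 459, and for Rpl29 (chr9:106429454-106431568) and Gm8210 (chr1:43189156-43189638) it was 3 of 483. A fragment within the coding sequence that covers none of these bases reads the same from either entry, and how the counting treated such fragments is not given in the sources used here.

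In some families, counts of a parent and its copies varied between mice far more than their sum. Rpl26, of the large subunit, ranged from 16.3 to 129 CPM in sham mice (median 20.3), from 17.4 to 120.2 CPM in fracture mice (median 70.7) and from 11.8 to 72.0 CPM in fracture plus PDX mice (median 14.2). Sham male 2, which had 129 CPM of Rpl26, had 11.3 CPM of Gm15772, whereas sham male 1 had 21.4 and 127 CPM. The family of Rpl26 lay between 125 and 154 CPM in all 18 libraries, so that high values of one entry went with low values of the other.

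Other families showed the same picture. Rpsa, also known as the laminin receptor, ranged from 116 to 317 CPM, Rpsa-ps10 from 8.80 to 206 CPM and their family from 305 to 366 CPM. Rps3a1 ranged from 128 to 224 CPM, Rps3a2 from 2.42 to 52.9, Rps3a3 from 1.54 to 27.9 and the family from 189 to 245 CPM. In sham male 1, Rps3a1 had 224 CPM and Rps3a2 4.70, and in sham male 2 they had 149.9 and 52.1. These are mice of one group and sex. Rps2, of the small subunit, ranged from 29.9 to 214 CPM, its copy Rps2-ps13 from 17.2 to 207 and the family from 306 to 377 CPM, and Rpl35a from 9.06 to 44.8 CPM with a family of 43.7 to 54.2 CPM. Mice of the same group differed in this way in all 3 groups, and what sets the mice apart was not tested.

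**Figure D1:**
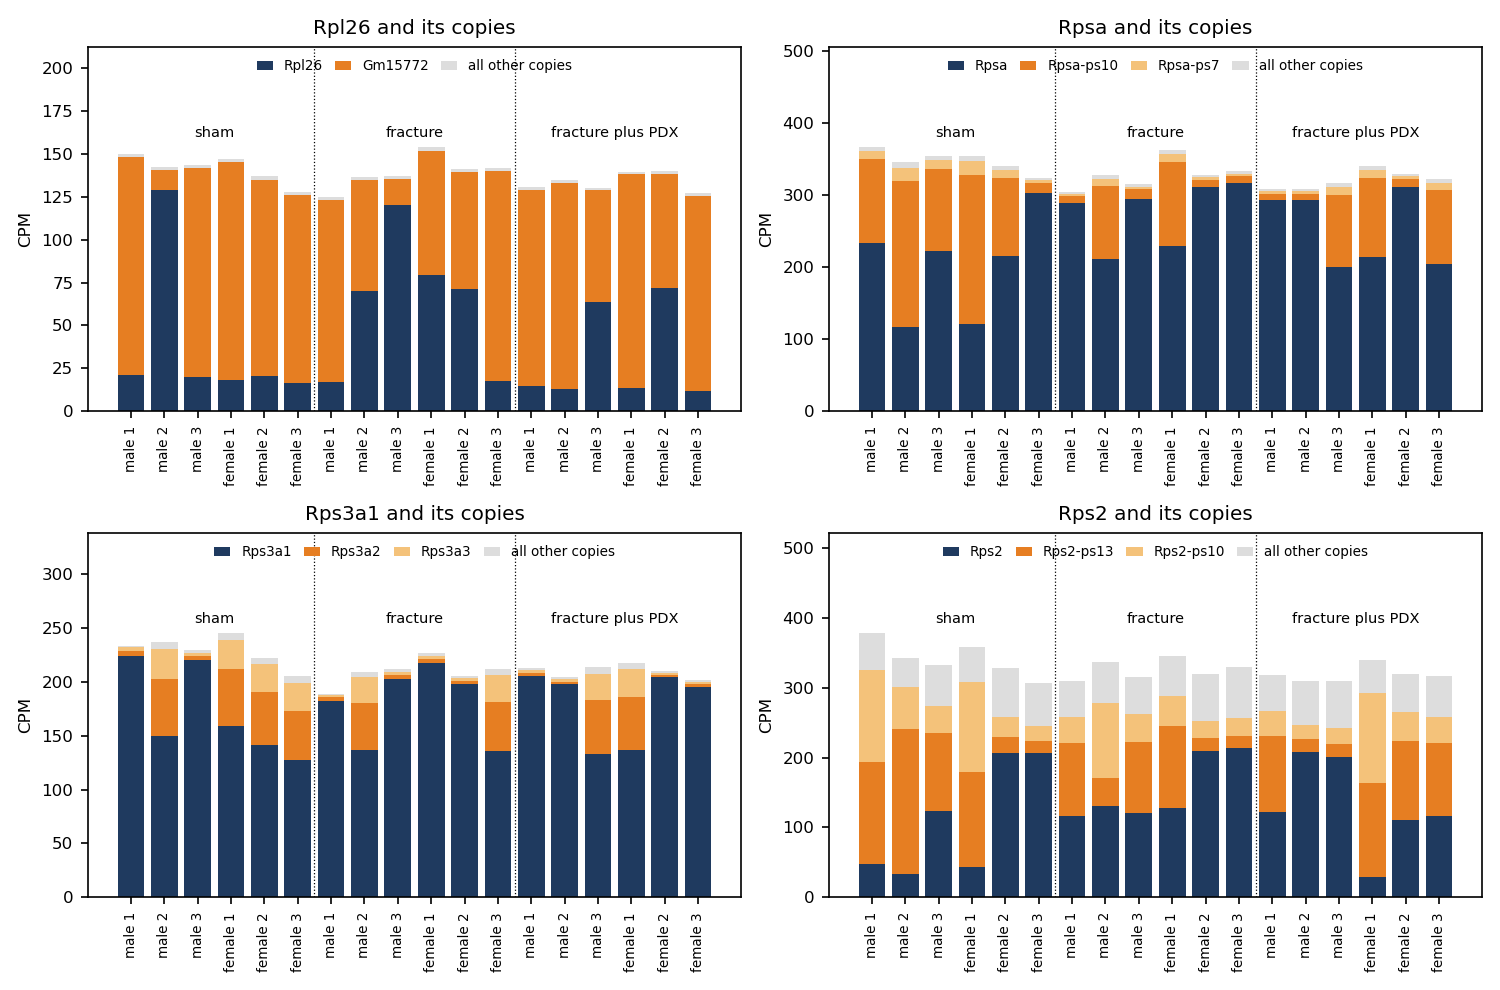
CPM (scaled counts) of 4 ribosomal protein genes and their near-identical copies in each of the 18 libraries, as stacked bars. The part of the gene itself changes between mice of the same group, while the whole bar stays within 125 to 154 CPM for Rpl26 and 306 to 377 CPM for Rps2.

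The spread between mice shows how far this reaches. Over the 81 members, the SD of log2 CPM within groups had a median of 0.0865 for the entry alone and 0.0742 with copies added, and 15 members alone but 2 with copies exceeded 0.2. The SD went from 1.18 to 0.0808 for Rpl26, from 0.927 to 0.0753 for Rps2, from 0.712 to 0.0842 for Rpl35a, from 0.363 to 0.0735 for Rpl21 and from 0.286 to 0.0463 for Rpl29. The 2 above 0.2 with copies were Rps4l (0.376), for which the search found no copy, and Rps18 (0.279). In the Rps18 family, Rps18-ps6 had 0 counts in fracture plus PDX female 1, where the family read 40.5 CPM. The largest SD of all 84 members were those of the pseudogene entries Rps3a2 (1.98) and Rps3a3 (1.72). Some copies had nearly equal counts, such as Gm10240, Gm10163 and Gm13370 of Rpl21 with medians of 31.8, 31.6 and 31.5 CPM, so a family sum may count a fragment more than once.

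**Figure D2:**
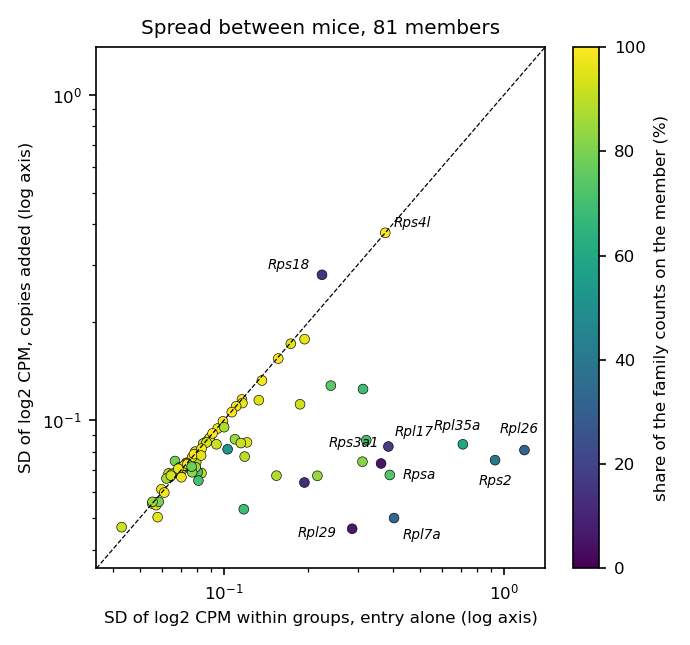
SD of log2 CPM within groups for 81 members, for the entry alone (x axis) and with near-identical copies added (y axis), both on log axes, with equal values on the diagonal and the colour giving the percentage of the family's counts on the member. Points below the diagonal have less spread with copies added, such as Rpl26, which holds 31.9% of its family's counts and goes from 1.18 to 0.0808.

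The members took 0.873% to 0.947% of all counts in sham mice (median 0.919%), 0.805% to 0.937% in fracture mice (median 0.859%) and 0.831% to 0.900% in fracture plus PDX mice (median 0.871%). The groups overlapped, with the lowest value in a male and the highest fracture value in a female. With copies added the parts were 1.05% to 1.18%, 0.986% to 1.15% and 1.03% to 1.10%. In bulk tissue, fewer cells rich in these mRNAs and less of them per cell cannot be told apart.

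**Figure D3:**
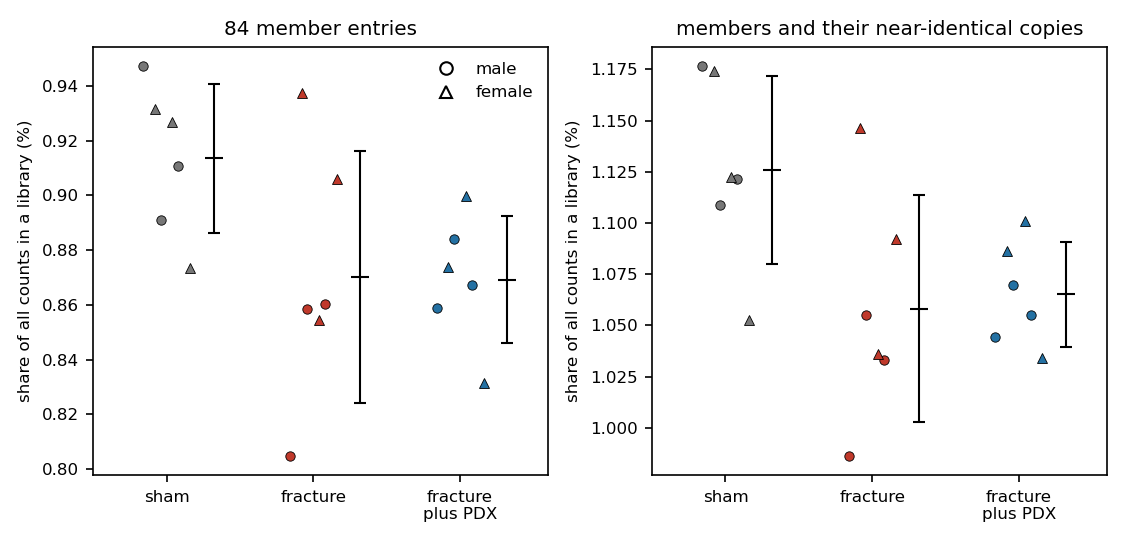
Percentage of the counts of each library on the 84 members (left) and on the members with their near-identical copies (right), by group, with circles for males, triangles for females and the mean ± SD of 6 mice. Sham mice lie at 0.873% to 0.947% and fracture mice at 0.805% to 0.937% on the left, and the groups overlap.

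Fracture and sham mice were compared to find what the injury changes in the ganglia. Rps18 and Rps19, both of the small subunit, were lower after fracture, and no member was higher. A gene was called at an adjusted p (Benjamini-Hochberg, over all genes tested) under 0.05 in edgeR's quasi-likelihood test with sex as a covariate. Of 20659 genes tested, 1.83% were called lower and 1.09% higher, and 2 of 84 members is near the first of these shares.

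Rps18, in the head of the small subunit, ranged from 14.4 to 19.3 CPM in sham mice (median 16.6) and from 8.62 to 13.4 CPM in fracture mice (median 11.4). Every fracture mouse was below every sham mouse. The log2 fold change was -0.57 ± 0.11 (SE), with an adjusted p of 0.0187 in edgeR's quasi-likelihood test. The entry holds 14.8% of its family's counts, and the family ranged from 89.4 to 97.3 CPM in sham and from 82.4 to 97.1 CPM in fracture mice. These ranges overlapped, with a log2 fold change of -0.073 ± 0.042 and an adjusted p of 0.386.

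Rps19 (chr7:24884371-24889806), a small-subunit protein mutated in some patients with Diamond-Blackfan anemia, ranged from 48.2 to 52.3 CPM in sham mice (median 51.2) and from 42.5 to 47.5 CPM in fracture mice (median 44.7), again without overlap. The log2 fold change was -0.17 ± 0.037, with an adjusted p of 0.0283 in edgeR's test. With copies added it was -0.15 ± 0.043 with an adjusted p of 0.0694. The call was also lost without any one of fracture female 2, fracture males 1, 2 and 3, sham female 1 or sham male 2, with adjusted p-values from 0.0516 to 0.0711, while with each mouse left out in turn the fold change was -0.19 to -0.15. Rps18 and Rps19 were the only 2 members whose fracture values all lay below the sham values, as 1.53% of all genes tested did. DESeq2 called 8 members, all lower, beside 8.08% of all genes. Without fracture female 1 the edgeR count of called members was 5, without fracture female 3 or sham female 3 it was 4, and without fracture female 2 or any fracture male it was 1.

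Most other members had a fitted change slightly below 0 that did not pass the test. It was below 0 in 76 of 84 members, against 49.3% of all genes, and the median was -0.078 on the log2 scale (-5.23%), against 0.0021 for all genes. The quartiles of the members were -0.12 and -0.054. Members moved together between mice, with a median correlation of 0.37 between pairs of members. Counts of members on one side of 0, here and below, are therefore not counts of separate results. The mean log2 CPM of the members had an SD of 0.037 in sham and 0.090 in fracture mice. An unadjusted p under 0.05 was found for 20 members, all with a negative value, and for 18.5% of all genes. The large subunit had 44 of 49 members below 0 (median -0.075) and the small subunit 32 of 35 (median -0.094). With copies added, 78 of 81 were below 0 with a median of -0.074. None was then called by edgeR (0 called, 20 at an unadjusted p under 0.05, lowest adjusted p 0.0634), beside 3.01% of all genes.

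The next members by p on the lower side were Rpl22, Rpl23a and Rpl21. Rpl22, an RNA-binding protein of the large subunit, ranged from 86.7 to 97.3 CPM in sham and 76.0 to 95.8 CPM in fracture mice, with a log2 fold change of -0.18 ± 0.05 and an adjusted p of 0.0708. Rpl23a, which lies at the exit of the peptide tunnel, ranged from 126 to 144 and 118 to 136 CPM, with -0.14 ± 0.041 and an adjusted p of 0.0858. In both genes the groups overlapped. Rpl21, of the large subunit, ranged from 6.13 to 13.3 and 5.82 to 7.44 CPM, with -0.57 ± 0.17 and an adjusted p of 0.101, and its family had -0.029 ± 0.041. The family with the smallest adjusted p, named after its value was seen, was Rps28 with -0.27 ± 0.072 and 0.0634.

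On the higher side the members with the smallest p were Rpsa, Rpl35a, Rpl26, Rps2 and Rpl15, and none passed the test. Their log2 fold changes were 0.45 ± 0.24 for Rpsa, 0.49 ± 0.32 for Rpl35a, 0.94 ± 0.68 for Rpl26, 0.56 ± 0.43 for Rps2 and 0.035 ± 0.035 for Rpl15, with adjusted p-values from 0.376 to 0.664. With copies added, these families had -0.078, -0.0026, -0.02, -0.061 and -0.067. Over the 44 members with at least 90% of their family's counts, fitted changes ran from -0.40 to 0.026, with 42 below 0 and a median of -0.073.

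**Figure D4:**
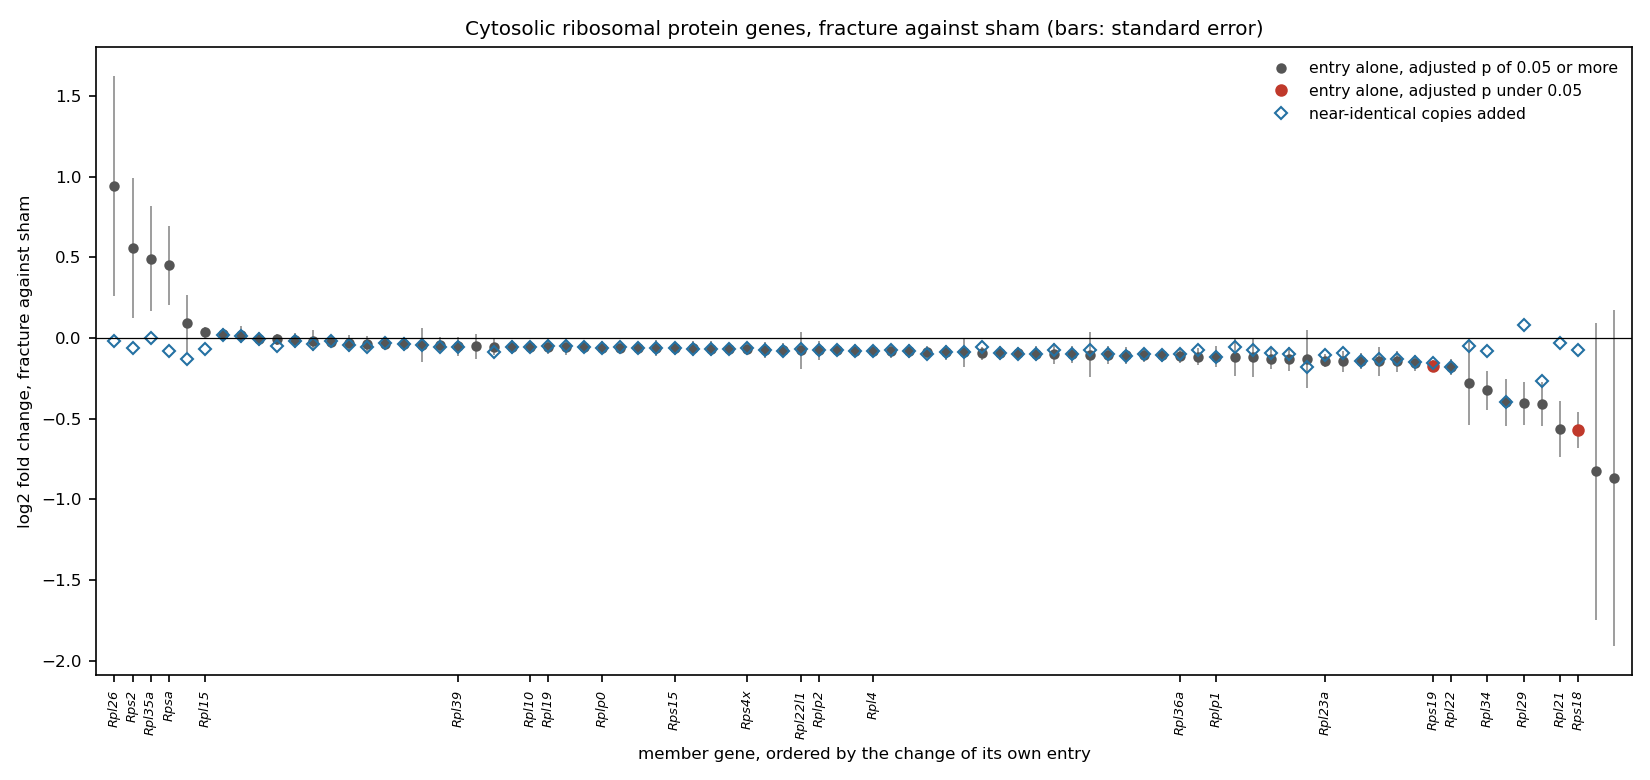
Log2 fold change of the 84 members between fracture and sham mice for the entry alone (dots with SE, red where called) and with near-identical copies added (diamonds, 81 members), with names under some members only. Most values lie just below 0, and over the 81 members with both values (without the copies Rps3a2 and Rps3a3 at the right end, and Rpl6l) the range narrows from -0.57 to 0.94 alone to -0.40 to 0.082 with copies.

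The stalk proteins and the X-linked members had small values too, none called. The fitted change between fracture and sham was -0.059 for Rplp0, -0.12 for Rplp1 and -0.076 for Rplp2. It was -0.11 for Rpl36a, -0.067 for Rps4x, -0.056 for Rpl10 and -0.051 for Rpl39. Rplp0, often used as a reference gene, ranged from 388 to 440.2 CPM in sham, 373 to 422 in fracture and 381 to 406 in fracture plus PDX mice, and the 3 groups overlapped. The paralogs had -0.089 ± 0.09 (Rps27l), -0.075 ± 0.12 (Rpl22l1) and -0.014 ± 0.045 (Rpl7l1; SE), also none called. With 1 mouse left out they ranged from -0.13 to -0.0083 (Rps27l), from -0.13 to 0.023 (Rpl22l1, above 0 without sham male 1) and from -0.042 to 0.0018 (Rpl7l1, above 0 without fracture female 2 or sham female 2).

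Fracture plus PDX was compared with fracture to find what PDX changes after the injury. No member was called, and neither was any other of the 20562 genes tested (0%), whereas DESeq2 called 10 genes (0.0635%) and 0 members. At an unadjusted p under 0.05 there were 2 members, both higher with PDX, and 5.41% of all genes. Rps20 (chr4:3831334-3835665), of the small subunit, ranged from 82.7 to 89.6 CPM in fracture mice (median 87.3) and 87.2 to 96.3 CPM with PDX (median 94.8). The groups overlapped, and the log2 fold change of 0.11 ± 0.031 had an adjusted p of 0.811 by edgeR. Rpl21 had 0.36 ± 0.16 and an adjusted p of 0.912, and its family -0.017.

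Over all 84 members the median change with PDX was 0.017, with 53 above 0, beside 50.0% of all genes. On the higher side Rplp2 had 0.086 and Rps12 0.085. On the lower side Rpl35a had -0.64 ± 0.33, Rpl26 -0.99 ± 0.71, Rpl29 -0.17 ± 0.14 and Rpl34 -0.12 ± 0.11 (SE), none of them called. With 1 mouse left out these ranged, in the same order, from -0.87 to -0.47, from -1.60 to -0.68, from -0.26 to -0.089 and from -0.21 to -0.045. Their families had -0.023, -0.057, 0.015 and -0.0072. Markers of other cells had 0 calls in this comparison but lay to one side of 0 in several lists. Above 0 were 14 of 14 neutrophil markers (median 1.09, 11 at an unadjusted p under 0.05), 11 of 11 of red blood cells (0.29), 13 of 14 of dividing cells (0.34) and 10 of 12 of macrophages (0.23). Below 0 were 20 of 20 skeletal muscle markers (-1.79) and 11 of 11 placenta genes (-0.54), with 0 at an unadjusted p under 0.05 in both. Their part in the values of the members was not tested.

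Between fracture plus PDX and sham mice, 3 members were called lower and 0 higher, where 2.32% and 2.17% of 20574 genes were. The sham mice are those of the first comparison. Rps18 ranged from 8.31 to 12.8 CPM with PDX, below every sham mouse, with a log2 fold change of -0.63 ± 0.12 and an adjusted p of 0.00881 by edgeR. Rpl34 (chr3:130726831-130730346), of the large subunit, ranged from 8.61 to 12.3 CPM in sham mice and 6.88 to 8.21 CPM with PDX, without overlap, with -0.45 ± 0.092 and an adjusted p of 0.0157. Values of these 2 members, like 1.48% of all genes, were lower in all mice with PDX. Rpl29, a large-subunit protein that also binds heparin, ranged from 6.22 to 8.88 and 3.81 to 6.33 CPM, which overlapped, with -0.57 ± 0.12 and an adjusted p of 0.0175. Without sham female 3 the edgeR count of called members was 7, and DESeq2 called 5 with all mice, beside 8.59% of all genes.

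None of these 3 calls held with copies added. The Rpl34 family had -0.088 ± 0.037 with an adjusted p of 0.217, and the Rps18 family -0.20 ± 0.17 with 0.610, including the mouse with 0 counts of Rps18-ps6. The Rpl29 family had a value of the opposite sign, 0.10 ± 0.032 with an adjusted p of 0.121, and ranged from 89.5 to 96.8 CPM in sham mice and 94.7 to 104 CPM with PDX. One family was called, beside 4.61% of all genes. It was Rps19, with 59.0 to 64.9 CPM in sham mice and 54.0 to 57.2 CPM with PDX, a fitted change of -0.13 ± 0.033 on the log2 scale and an adjusted p of 0.0444, and the entry alone had -0.10 ± 0.041 and 0.197. Over all members the median was -0.058, with 73 of 84 below 0, beside 50.4% of all genes.

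**Figure D5:**
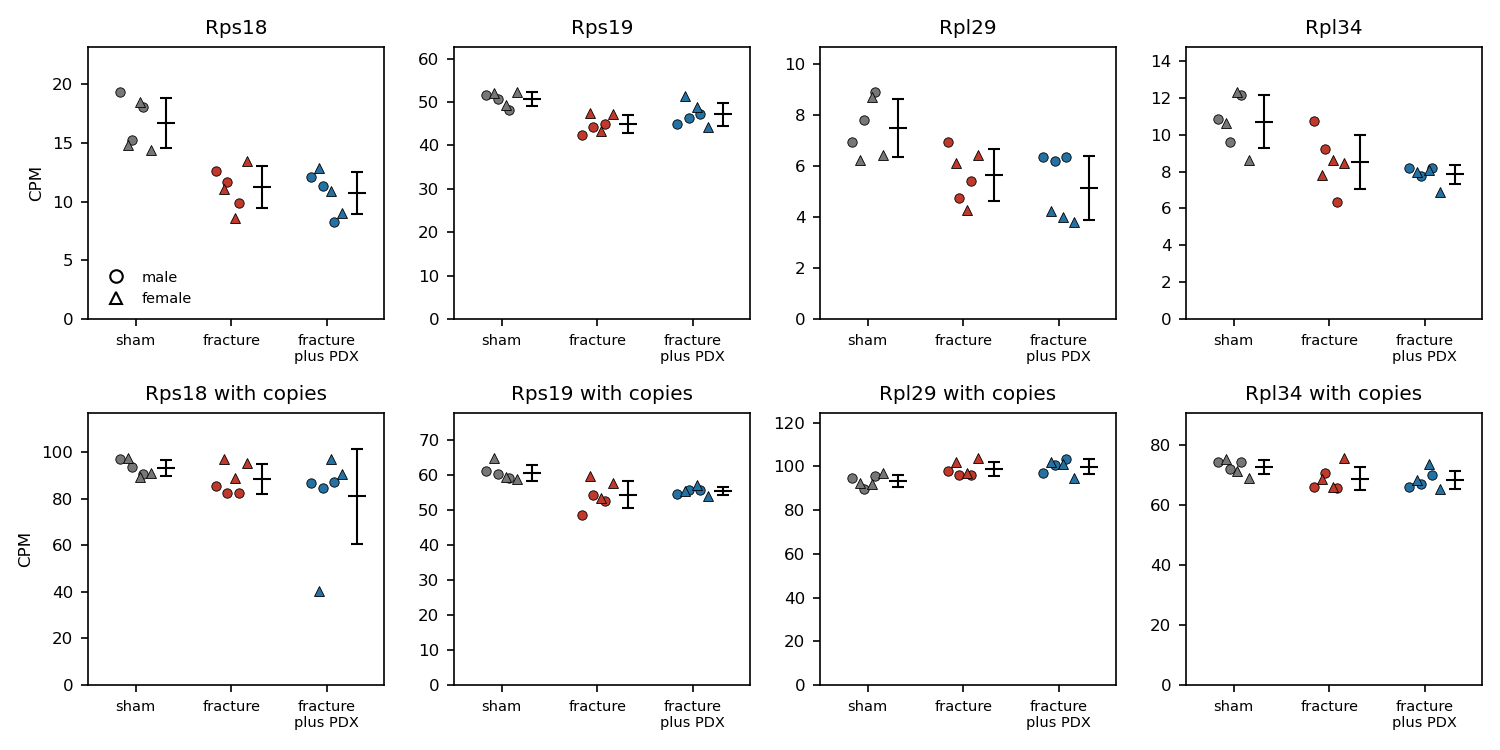
CPM per mouse of the 4 members called in a comparison with sham mice, for the entry alone and with near-identical copies added, with circles for males, triangles for females and the mean ± SD of 6 mice. Rps18 alone ranges from 14.4 to 19.3 CPM in sham and 8.62 to 13.4 CPM in fracture mice, whereas the family ranges of 89.4 to 97.3 and 82.4 to 97.1 CPM overlap.

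Females and males were compared over the 18 libraries with group as a covariate. No member was called by edgeR or DESeq2, where edgeR called 0.291% of 21340 genes and DESeq2 1.95%. At an unadjusted p under 0.05 there were 2 members, both lower in females, and 10.1% of all genes. These were Rpl29 with -0.27 ± 0.11 (adjusted p 0.408) and Rpl30, of the large subunit, with -0.30 ± 0.13 (adjusted p 0.433). The Rpl29 family had 0.017. The X-linked members had 0.019 (Rpl10), 0.00065 (Rps4x), 0.0046 (Rpl36a) and -0.038 (Rpl39). No marker of other cells was called. Above 0 in females against males were 20 of 20 skeletal muscle markers (median 1.22), 7 of 8 fibroblast markers (0.11) and 10 of 12 macrophage markers (0.11). Below 0 were 11 of 11 red blood cell markers (-0.17), 12 of 14 genes of dividing cells (-0.16), 11 of 14 neutrophil markers (-0.12) and 16 of 20 sensory neuron markers (-0.034). The part of these cells in the values of the members was not tested.

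The difference between fracture and sham was further below 0 in males than in females in most members, but no member passed the test of this interaction. The median over the members of the difference in mean log2 CPM was -0.15 in males, with 77 of 84 below 0, and -0.014 in females, with 50 below 0. The fitted interaction was above 0 in 71 members, beside 48.9% of all genes, with a median of 0.14. An unadjusted p under 0.05 was found for 17 members, all above 0, and for 7.20% of all genes. After adjustment edgeR called 0 of 20659 genes (0%), and DESeq2 called 58 genes (0.287%) and 0 members. Some marker lists of other cells also lay to one side of 0 in this interaction, with 0 genes called in any list. The 20 skeletal muscle markers had 20 below 0 (median -3.86, 16 at an unadjusted p under 0.05). All the tested markers of Schwann cells, red blood cells and neutrophils and all placenta genes were above 0, with medians of 0.70, 0.56, 0.50 and 0.81. Of 26 other TOP mRNAs 23 were above 0, with a median of 0.093. The part of these cells in the interaction of the members was not tested.

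Rplp0 had the smallest p of the members in this interaction. Rps12, of the small subunit, is given beside it without a rule, and both interactions were above the members' median of 0.14. Rplp0 had 414, 428 and 440.2 CPM in the 3 sham males and 373, 376 and 398 CPM in the 3 fracture males, with 388, 397 and 401 CPM in sham females and 394, 402 and 422 CPM in fracture females. The males of the 2 groups did not overlap and the females did. Rps12 had 49.6, 52.2 and 52.7 CPM in sham males, 38.9, 41.7 and 43.7 in fracture males, 42.8, 44.3 and 48.5 in sham females and 43.2, 44.8 and 49.5 in fracture females. Sham males were above sham females in both genes. The interactions were 0.20 ± 0.056 and 0.33 ± 0.095, with adjusted p-values of 0.523 and 0.536 by edgeR.

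The interaction of sex and PDX after fracture was below 0 in 69 of 84 members, beside 49.6% of all genes, with a median of -0.075. No member was called, and 0.00486% of all genes were. An unadjusted p under 0.05 was found for 9 members and 4.14% of all genes. The fracture mice are shared with the interaction of sex and fracture. No gene of the marker lists was called here either, while 20 of 20 skeletal muscle markers (median 2.81) and 8 of 8 fibroblast markers (0.20) were above 0. Below 0 were 10 of 10 Schwann cell markers (-0.22), 11 of 11 placenta genes (-1.87), 13 of 14 neutrophil markers (-0.39), 10 of 11 red blood cell markers (-0.55), 12 of 14 genes of dividing cells (-0.21) and 22 of 26 other TOP mRNAs (-0.056). Their part in the interaction of the members was not tested.

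Other genes of ribosomes and their control were described by the same fit of fracture against sham, in which 2.92% of all genes were called. Of 78 mitochondrial ribosomal proteins 0 were called, and the median log2 change was 0.018 with 27 below 0. Of 60 ribosome assembly factors 1 rose and 0 fell, with a median of 0.0061. The one was Rrp12, which acts in the export of subunits from the nucleus, with 33.1 to 35.1 CPM in sham and 36.8 to 39.7 CPM in fracture mice, a log2 fold change of 0.17 ± 0.034 and an adjusted p of 0.0241. Of 26 genes of RNA polymerases I and III, which make ribosomal and transfer RNA, 0 were called (median 0.02).

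Of 26 other TOP mRNAs 0 were called (median -0.0082). The smallest p on the lower side were those of Rack1, a scaffold on the small subunit, with -0.16 ± 0.04 and an adjusted p of 0.0531, and of the poly(A)-binding protein Pabpc1, with -0.11 ± 0.03 and 0.0654. Of 40 genes of the mTOR axis and TOP regulators 0 rose and 1 fell (median 0.0063). It was Eif4ebp1, an inhibitor of cap-dependent translation that mTOR switches off, with 7.76 to 9.32 CPM in sham and 5.92 to 7.44 CPM in fracture mice, a log2 fold change of -0.35 ± 0.075 and an adjusted p of 0.0268. Larp1 had 0.091 ± 0.031 and an adjusted p of 0.135. None of these 5 lists had a called gene between fracture plus PDX and fracture (0 called by edgeR).

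Between fracture plus PDX and sham mice edgeR called 1 of 60 assembly factors, 1 of 26 polymerase genes, 1 of 26 other TOP mRNAs and 1 of 40 genes of the mTOR axis higher, beside 2.17% of all genes. It called 1 other TOP mRNA and 3 genes of the mTOR axis lower, beside 2.32% of all genes, and 0 of 78 mitochondrial ribosomal proteins in either direction. Nothing is read from counts this small. Rrp12 rose by 0.23 on the log2 scale (adjusted p 0.00750) and Larp1 by 0.12 (adjusted p 0.0134). On the lower side Rack1 had -0.15 (adjusted p 0.0415), Eif4ebp1 -0.37 (adjusted p 0.0395) and the related inhibitor Eif4ebp2 -0.22 (adjusted p 0.0195).

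Markers of other cells moved between fracture and sham mice beside these genes. Of 14 genes of dividing cells 7 fell, with sums of 94.5 to 134 CPM in sham and 76.7 to 89.9 CPM in fracture mice. Of 12 macrophage markers 2 fell (Csf1r and Adgre1; sums of 203 to 255 and 158 to 208 CPM). Of 14 neutrophil markers 1 fell (97.7 to 421 and 104 to 218 CPM), of 8 fibroblast markers 1 (1765 to 2333 and 1644 to 1892 CPM) and of 11 placenta genes 3 (201 to 643 and 32.1 to 308 CPM). Of 20 sensory neuron markers 5 rose (23856 to 25954 and 26089 to 27968 CPM). Over all genes tested, 1.83% were called lower and 1.09% higher. Every tested gene of dividing cells, macrophages, neutrophils, fibroblasts and placenta was below 0, with medians of -0.59, -0.23, -0.81, -0.23 and -1.76. Among the sensory neuron markers 18 were above 0 (median 0.11).

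None was called among 20 skeletal muscle markers (117 to 1005 and 157 to 1887 CPM), 11 of red blood cells (906 to 2365 and 1116 to 1482 CPM), 8 of satellite glia (3023 to 3816 and 3507 to 3896 CPM) and 10 of Schwann cells (11182 to 25333 and 13066 to 20047 CPM). Above 0 after fracture were 20 of 20 skeletal muscle markers (median 1.91) and 6 of 8 of satellite glia (0.074). Below 0 were 10 of 11 of red blood cells (-0.63) and 9 of 10 of Schwann cells (-0.18). Between fracture plus PDX and sham mice, 9 placenta genes (30.8 to 159 CPM with PDX), 1 gene of dividing cells (83.6 to 131 CPM) and 1 macrophage marker (204 to 250 CPM) fell, and 3 sensory neuron markers (25417 to 28881 CPM) and 1 satellite glia marker (3635 to 4374 CPM) rose, the latter being Kcnj10 with 0.27 (adjusted p 0.0493 by edgeR). Over all genes, 2.32% were called lower and 2.17% higher in that comparison. No marker in the table was at 0 in all libraries. The part of these cells in the values of the ribosomal protein genes was not tested.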

How the data were processed

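Poly(A)-selected, stranded, paired-end libraries of mouse DRG were sequenced, 1 per mouse. The authors deposited a table with raw counts and FPKM values for each gene and library. The submitters' processing notes name cutadapt 1.10, FastQC, HISAT2, StringTie and the build mm10, without their roles. The counting program, the strand setting and the treatment of fragments that map to several places are not given in the sources used here. No column of values was left out (0). The members and gene lists were chosen with earlier results of these data known.

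Counts were tested with edgeR 4.0.16 in R 4.3.3 (quasi-likelihood test, TMM, filterByExpr with a minimum count of 10, robust fit), on the 12 libraries of a comparison with sex as a covariate, or on all 18 with group. P-values were adjusted over all genes tested, and a gene was called under 0.05. CPM and log2 CPM used TMM library sizes, and FPKM served for levels between genes. Scripts were tested on simulated data. Mice are separate animals, and depth was similar, so the spread between libraries sets the precision. For some members with abundant copies that spread includes counts shifting between an entry and its copies.

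Alternatives were DESeq2 1.42.0, limma 3.58.1 on log2(FPKM + 1) and log2(FPKM + 0.1), other filters and scalings, no sex covariate, all libraries in 1 fit, a replicate block and each mouse left out. Adding near-identical copies to their parent was chosen after seeing the data. Named members were the 5 of each direction with the smallest p in fracture versus sham, fracture plus PDX versus fracture, and females versus males, the 5 highest and 5 lowest in FPKM, the 5 with the largest SD, members named as like another with the member of that number, X-linked members, stalk proteins and Rpsa. Of each other list the rule took the 2 of each direction with the smallest p in fracture versus sham, of which those the text turns on are given. Rps28, and the members that come up only by a promoter sequence, a copy or a flag, fall outside this rule. Some named members are not reported here.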

Additional observations from a re-analysis of the deposited data

Results flagged for a closer look

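Of 132 groups of 6 mice, taken over the 44 named members and 3 groups, 12 held 1 mouse whose gap to the nearest other mouse took up most of the group's range, past Dixon's critical value, which chance gives in about 1 in 20 groups. Among sham mice these were Rps21 in female 3 (25.2 CPM, lowest, the nearest 29.1 CPM), Rps27 in male 2 (11.5 CPM, lowest, the nearest 22.3 CPM), Rps27a in female 3 (84.3 CPM, lowest, the nearest 97.1 CPM), Rpl7 in female 3 (224 CPM, lowest, the nearest 241 CPM), Rps4x in female 3 (215 CPM, lowest, the nearest 236 CPM), Rpl26 in male 2 (129 CPM, highest, the nearest 21.4 CPM). Among fracture mice these were Rpl23a in female 1 (136 CPM, highest, the nearest 124 CPM), Rpl4 in female 1 (455 CPM, highest, the nearest 423 CPM). Among fracture plus PDX mice these were Rpl34 in female 3 (6.88 CPM, lowest, the nearest 7.77 CPM), Rpl17 in male 1 (63.0 CPM, highest, the nearest 24.8 CPM), Rps4x in female 1 (237 CPM, highest, the nearest 225 CPM), Rps2 in female 1 (29.9 CPM, lowest, the nearest 110.0 CPM). The values of Rps2, Rpl26, Rpl17 and Rpl34 belong to entries that hold less than 50% of their family's counts. In the sham group, 4 of the lowest values came from female 3.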

How the results depend on the processing

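Between fracture and sham mice the 2 members called lower became 8 with DESeq2 (Rps18, Rps19, Rpl21, Rpl22, Rpl23a, Rps28, Rpl29, Rpl31), 0 with copies added to their parent, and 1 to 5 with single mice left out. The Rpl29 entry had -0.40 by DESeq2, whereas its family was higher after fracture, with 89.5 to 96.8 CPM in sham and 95.9 to 104 CPM in fracture mice. All genes called went from 603 to 1506 with DESeq2 and 213 to 710 without 1 mouse. Between fracture plus PDX and sham the 3 members called lower became 5 with DESeq2, 1 with copies added and 3 to 7 without 1 mouse, and all genes called went from 925 to 1627 and 498 to 1008. Rpl29 turned to 0.10 there with copies added. Between fracture plus PDX and fracture all genes called went from 0 to 10 with DESeq2 and 0 to 1 without 1 mouse. Females against males had 62 genes called, and 327 with DESeq2. The interaction of sex and fracture had 0, 58 with DESeq2 and 0 to 1 without 1 mouse. The interaction of sex and PDX had 1, 8 with DESeq2, 0 with limma on log2(FPKM + 0.1), log2(FPKM + 1) or at least 10 counts in every library, and 1 to 2 without 1 mouse. The median share of counts on the members was 0.919%, 0.859% and 0.871% in sham, fracture and fracture plus PDX mice. It was 1.76%, 1.69% and 1.72% of summed FPKM, 1.04%, 0.972% and 0.984% with entries named -ps, and 1.12%, 1.05% and 1.06% with all copies. Mice of different groups share a number in their labels, and whether it stands for a batch is not given. For mice with the same sex and number, correlations lay between -0.029 and 0.051 for fracture and sham. They lay between -0.070 and 0.13 for fracture plus PDX and fracture, and between -0.071 and 0.063 for fracture plus PDX and sham. With the same sex and different numbers they were -0.043 to 0.038, -0.080 to 0.10 and -0.12 to 0.082, in the same order. Median correlations with the same and with different numbers were 0.020 and -0.010, 0.058 and -0.037, and -0.0046 and 0.00071. With the number and sex as a replicate block, fracture against sham had 0 members and 118 genes called (adjusted p 0.0694 for Rps18 and 0.0722 for Rps19, by edgeR), and fracture plus PDX against sham 3 members and 486 genes, where Rps7 was called beside Rps18 and Rpl34 and Rpl29 was no longer called (adjusted p 0.0600, and 0.0720 without the sex covariate, by edgeR). The cause of these changes was not tested. The median change of the members kept its sign with each mouse left out, from -0.10 to -0.062 between fracture and sham and from -0.077 to -0.040 between fracture plus PDX and sham, while between fracture plus PDX and fracture it ranged from 0.00047 (near 0) to 0.038, against 0.017 with all mice. The share of fragments that fit several entries is unknown, which limits all members with abundant copies.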
